A study of Mus musculus with 4 samples.

Results

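A cluster of zinc finger genes on mouse chromosome 13 was examined in H3K27ac HiChIP libraries of B6 and D2 embryonic stem cells. The cluster was taken as the 1 Mb window from 66900000 to 67900000 of chromosome 13 (GRCm38), and its members were all pairs of anchors in the deposited table with at least 1 anchor overlapping that window. They numbered 2072 of the 1513030 pairs in the table. The window held 47 of the table's 56562 anchors, and its pairs reached 123 further anchors on either side. HiChIP joins DNA ends that lie near each other in fixed nuclei, pulls them down with an antibody and sequences them, and the antibody here was against acetylated lysine 27 of histone H3, a mark of active promoters and enhancers. An anchor is a genomic interval in which such ends were collected, and a count is the number of read pairs that join 2 anchors. The B6 group was C57BL/6J embryonic stem cells of lines B6 4-1 and B6 5-1, the D2 group was DBA/2J embryonic stem cells of lines D2 2-9 and D2 5-5, and each line gave 1 library. All 4 lines were kept in serum medium with LIF, PD0325901 and CHIR99021, no other treatment is named in the labels, and all were fixed with 1% formaldehyde and cut with DpnII. A p-value therefore measures only the spread between 2 lines of each strain.

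Zinc finger genes of this kind code for proteins with tandem C2H2 zinc fingers, and many of these proteins carry a KRAB domain. KRAB zinc finger proteins bind DNA, often in transposable elements, and bring in the corepressor Trim28 and the histone methyltransferase Setdb1, which place the repressive mark H3K9me3. Such genes lie in clusters of copies that arose by duplication, and in embryonic stem cells many of them act in the silencing of endogenous retroviruses. Rsl1, which lies in this window, codes for a KRAB zinc finger protein known for repressing male-specific genes in the liver.

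The copies resemble each other at their start sites as well. Promoters of 300 bp, from 250 bases before to 50 bases after the start (RefSeq, GRCm38.p6), were listed for 23 start sites of the window's zinc finger genes. None was listed for Zfp729b, Zfp493 or Zfp87, and Zfp708 was listed more than once. The 8 printed here form 4 of the pairs of alike promoters, and the counts at the members of a pair are set side by side below. Each is written 5′ to 3′ along its gene, and the capitals mark AAATGTAGT, the reverse complement of ACTACATTT.
Zfp759 promoter, chr13:67127978-67128277, plus strand: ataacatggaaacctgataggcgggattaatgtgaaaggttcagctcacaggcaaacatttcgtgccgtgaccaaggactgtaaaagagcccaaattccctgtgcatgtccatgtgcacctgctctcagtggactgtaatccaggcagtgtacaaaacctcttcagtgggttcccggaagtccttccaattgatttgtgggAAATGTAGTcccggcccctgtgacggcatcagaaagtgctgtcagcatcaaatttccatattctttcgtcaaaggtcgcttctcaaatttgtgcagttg
Zfp457 promoter, chr13:67306363-67306662, minus strand: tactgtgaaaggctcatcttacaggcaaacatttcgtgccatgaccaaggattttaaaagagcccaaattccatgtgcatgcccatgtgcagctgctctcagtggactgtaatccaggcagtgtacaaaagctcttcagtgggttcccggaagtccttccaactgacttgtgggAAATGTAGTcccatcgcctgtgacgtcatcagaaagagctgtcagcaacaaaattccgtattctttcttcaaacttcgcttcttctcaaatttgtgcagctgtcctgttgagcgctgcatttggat
Zfp273 promoter, chr13:67813566-67813865, plus strand: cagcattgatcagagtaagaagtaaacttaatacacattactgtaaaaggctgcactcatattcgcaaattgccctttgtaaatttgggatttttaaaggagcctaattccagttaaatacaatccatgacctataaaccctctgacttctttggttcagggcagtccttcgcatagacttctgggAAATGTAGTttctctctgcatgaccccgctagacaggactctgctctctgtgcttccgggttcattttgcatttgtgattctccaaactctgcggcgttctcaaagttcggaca
Zfp708 promoter, chr13:67081496-67081795, minus strand: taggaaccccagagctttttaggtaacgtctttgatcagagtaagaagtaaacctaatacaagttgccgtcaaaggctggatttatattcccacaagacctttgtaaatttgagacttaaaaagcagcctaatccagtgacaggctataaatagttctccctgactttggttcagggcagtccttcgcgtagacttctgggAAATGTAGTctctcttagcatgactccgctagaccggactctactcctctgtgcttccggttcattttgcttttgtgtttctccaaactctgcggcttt
Zfp874a promoter, chr13:67451575-67451874, minus strand: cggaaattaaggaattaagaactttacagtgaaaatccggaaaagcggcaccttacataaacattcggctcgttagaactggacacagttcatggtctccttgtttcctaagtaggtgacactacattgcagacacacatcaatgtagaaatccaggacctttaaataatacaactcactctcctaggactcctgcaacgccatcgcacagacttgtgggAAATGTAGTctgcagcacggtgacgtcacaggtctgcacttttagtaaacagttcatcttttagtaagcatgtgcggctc
Zfp874b promoter, chr13:67484204-67484503, minus strand: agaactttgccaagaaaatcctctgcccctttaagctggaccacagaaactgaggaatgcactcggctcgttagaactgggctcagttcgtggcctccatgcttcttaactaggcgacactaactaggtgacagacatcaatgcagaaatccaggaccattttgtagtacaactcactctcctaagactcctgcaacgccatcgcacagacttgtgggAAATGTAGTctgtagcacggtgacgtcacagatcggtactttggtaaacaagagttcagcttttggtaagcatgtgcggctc
Zfp729a promoter, chr13:67637732-67638031, minus strand: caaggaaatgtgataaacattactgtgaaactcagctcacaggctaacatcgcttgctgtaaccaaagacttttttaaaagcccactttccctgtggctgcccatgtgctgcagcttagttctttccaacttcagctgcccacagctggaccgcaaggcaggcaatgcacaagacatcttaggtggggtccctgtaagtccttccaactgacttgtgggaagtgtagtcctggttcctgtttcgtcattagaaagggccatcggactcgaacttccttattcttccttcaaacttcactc
Zfp738 promoter, chr13:67683463-67683762, minus strand: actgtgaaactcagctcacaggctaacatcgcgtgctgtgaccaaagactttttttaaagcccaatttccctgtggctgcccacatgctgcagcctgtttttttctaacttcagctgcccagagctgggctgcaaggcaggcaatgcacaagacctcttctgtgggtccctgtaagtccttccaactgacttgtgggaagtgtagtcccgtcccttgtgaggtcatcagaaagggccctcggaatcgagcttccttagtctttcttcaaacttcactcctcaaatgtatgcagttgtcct
Zfp759 and Zfp457 shared 248 of 273 aligned bases (90.8%). Zfp273 and Zfp708 shared 233 of 268 aligned bases (86.9%). Zfp874a and Zfp874b shared 239 of 280 (85.4%), and Zfp729a and Zfp738 shared 247 of 278 (88.8%). Other pairs, not printed, were at least as alike, among them Zfp456 and Zfp429 (92.1%), Rsl1 and Zfp429 (91.5%) and Zfp85 and Zfp273 (90.9%). The capitalised letters are in 6 of the 8 printed promoters and in neither promoter of the Zfp729a and Zfp738 pair.

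Searched on both strands, ACTACATTT was in 11 of the 23 zinc finger promoters (47.8%) and in 245 of all 32851 listed promoters (0.746%). All 11 held it as AAATGTAGT in the direction of the gene. So did a promoter of Gm10037, a gene of the window that is not named as a zinc finger. The longer ACTACATTTCCCA, which contains the shorter run, was in the same 11 and in 143 of all promoters (0.435%). TTCCCACAA, whose letters can overlap its end by 6 bases at TTCCCA, was in 13 of 23 (56.5%) and in 164 of all (0.499%). In the Zfp708 promoter TTCCCACAA lies apart from the longer run. Zfp58, Zfp748, Zfp729a and Zfp738 hold TTCCCACAA without ACTACATTT. ACTACATTTCCCA is the run of 13 bases, and TTCCCACAA the run of 9, held by the most of these 23 promoters, so their shares among the 23 follow from that choice. In contrast, CCAAT was in 6 of 23 (26.1%) against 37.4% of all promoters, and GGGCGG in 3 of 23 against 35.7%. A match describes letters in this stretch and is no evidence of a bound factor.

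The window as a whole had fewer H3K27ac contacts in D2. Its pairs held 4716 and 4384 counts in B6 replicates 1 and 2, and 2433 and 2555 counts in D2 replicates 1 and 2. Scaled by the library totals, which ranged from 2767882 to 2944258, the B6 libraries had 1622 and 1565 CPM (counts per 1000000 of the library total) and the D2 libraries 879.0 and 867.8 CPM. Means with SD (n = 2) were 1593 ± 39.8 CPM for B6 against 873.4 ± 7.93 CPM for D2, so that D2 had 54.8% of the B6 level. Both D2 libraries lay below both B6 libraries, and the gap was many times the spread within either strain. Fitted beside every other 1 Mb window of the autosomes, the fitted log2 value, D2 over B6 in every case below, was -0.87 (SE 0.074, edgeR adjusted p 1.24e-28). Of the 2310 windows tested, 15% passed the same test in the lower direction, and the median log2 fold change over all windows was -0.01. Lower values were found in 87 windows, 0 of which had as many counts. In bulk cells, fewer cells carrying the contacts and fewer contacts per cell cannot be told apart. The anchors and the mm10 assembly follow the B6 sequence, so D2 reads that could not be placed there and a lower D2 signal cannot be told apart either.

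The lower level was present in each class of pairs, though not to the same extent. Pairs with both anchors in the window (925 pairs) had 3708 and 3462 counts in B6 and 2027 and 2110 counts in D2, which makes a log2 ratio of mean CPM of -0.79. Pairs that reached an anchor upstream of the window (903 pairs) had 794 and 723 counts in B6 and 265 and 288 in D2. Their mean was 265.6 ± 10.5 CPM for B6 and 96.8 ± 1.47 CPM for D2 (SD, n = 2), with a log2 ratio of -1.46. Pairs that reached an anchor downstream (244 pairs) had 214 and 199 counts in B6 and 141 and 157 in D2, a log2 ratio of -0.47. The share of the window's counts that stayed inside it was accordingly 78.8 ± 0.24% in B6 and 82.9 ± 0.52% in D2 (SD, n = 2). By distance between anchors, the log2 ratio was -0.69 under 50 kb, -0.88 from 50 to 200 kb, -0.92 from 200 to 500 kb and -0.99 at 500 kb or more. These class values were not tested, since 2 libraries against 2 cannot give an exact permutation p under 0.33.

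Repeated sequence differed between these classes. Of the 75-base words of the 47 anchors in the window, the length of the reads, a median of 95.7% per anchor occurred once in the assembly, and the lowest anchor had 26.7%. The 97 upstream partners had a median of only 34.4%, and the 26 downstream partners had 99.8%. Upstream partners with at least 90% unique words (15 anchors) held 24 and 19 counts in B6 and 4 and 7 in D2. The part of repeated sequence in the upstream value was not tested beyond these counts. With pairs restricted to anchors of at least 90% unique words on both ends, the window's log2 fold change was -0.75 and still passed the test.

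At the level of genes, GENCODE M21 lists 61 genes with a start site in the window, and 44 of them had an anchor over a start site. A gene's count was the sum over all pairs with an anchor over any of its start sites, and all 44 passed the minimum of 20 counts. In D2, 37 genes fell and 0 rose at an edgeR adjusted p under 0.05, where 8.47% of all genes tested fell and 5.91% rose. The log2 fold change was below 0 in all 44, with a median of -0.64 against 0.06 over all genes tested, though without B6 replicate 1 that of Zfp457 was 0.09. Zinc finger genes, taken by their symbols, numbered 25, of which 24 were measured and 20 fell (median log2 -0.73). Of the 11 other protein-coding genes 9 fell, and of the 9 measured genes of other types 8 fell. Among those protein-coding genes, Gm28044, Gm28041, Gm26965 and Gm49345 rest on exactly the anchor of a zinc finger gene and repeat its counts. The 44 genes rest on 32 distinct sets of anchors, since neighbours with close start sites share an anchor and then share their counts. A pair that joins start-site anchors of different genes counts for each of them. Without B6 replicate 1 the number of fallen genes was 21, and the DESeq2 Wald test gave 23. Adjusted p-values stayed under 0.05 in each of 11 alternatives for 19 of the 37 genes, 11 of them zinc finger genes. The protein-coding genes are given below in their order along the chromosome, with CPM in B6 replicates 1 and 2 and then D2 replicates 1 and 2.

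**Figure D1:**
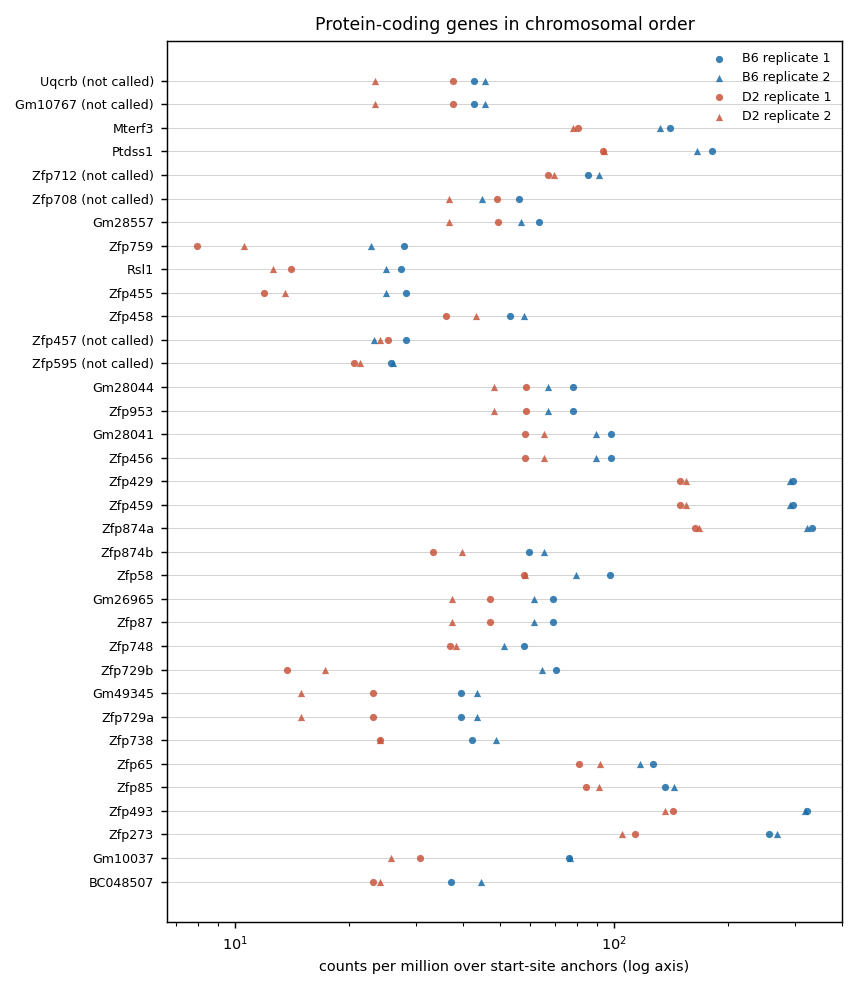
CPM over the start-site anchors of the 35 measured protein-coding genes of the window (horizontal log axis), in chromosomal order from top to bottom; colours show the strain (blue B6, red D2) and symbols the replicate. The D2 points lie left of the B6 points for most genes, farthest for Zfp729b (70.1 and 64.6 CPM in B6, 13.7 and 17.3 CPM in D2), while those of Zfp457 overlap.

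At the left edge lie 4 genes that are not named as zinc fingers. Uqcrb (66900617 to 66905378), which codes for a subunit of respiratory complex III, shares its anchor (66902069 to 66907296) with Gm10767 (66904914 to 66909236). They had 42.6, 45.7, 37.6 and 23.4 CPM (log2 -0.54, SE 0.20), and the edgeR adjusted p was 0.0578. D2 replicate 1 lay nearer to the B6 libraries than to D2 replicate 2, and over the anchors tested, rather than the genes, the same counts had an adjusted p of 0.0422. Mterf3 (66906968 to 66933088), a regulator of mitochondrial transcription, had 140.6, 132.1, 80.6 and 78.1 CPM over an anchor shared with Ptdss1 (66925662 to 66954628), and fell by 0.78 on the log2 scale (SE 0.14, edgeR adjusted p 5.35e-05). Ptdss1 (66932830 to 66998401), which makes phosphatidylserine, has a second start-site anchor (66976540 to 66983346) and had 181.5, 165.3, 93.6 and 94.4 CPM. It fell by 0.88 (SE 0.13, edgeR adjusted p 4.60e-06), with no overlap between the strains.

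The first zinc finger genes of the window differed little. Zfp712 (67038596 to 67061170) had 85.6, 91.4, 67.2 and 69.6 CPM (log2 -0.37, edgeR adjusted p 0.0790). Zfp708 (67069399 to 67097976) had 56.0, 45.0, 49.1 and 36.7 CPM (log2 -0.24, edgeR adjusted p 0.398). The strains overlapped at Zfp708, where D2 replicate 1 lay above B6 replicate 2. Gm28557 (67069399 to 67108604), which runs through Zfp708, had 63.6, 56.8, 49.5 and 36.7 CPM and just passed the threshold (log2 -0.49, edgeR adjusted p 0.0465). Its call held in 6 of 11 alternatives, and its value was -0.28 without D2 replicate 2 (edgeR adjusted p 0.228). Rslcan18, the next gene, had no anchor over a start site and was not measured here.

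A run of 3 genes with larger falls followed. Zfp759 (67121660 to 67141787) had 27.9, 22.9, 7.95 and 10.5 CPM and fell by 1.45 on the log2 scale (SE 0.26, edgeR adjusted p 6.60e-05). Rsl1 (67173182 to 67184044) had 27.5, 25.0, 14.1 and 12.6 CPM and fell by 0.98 (SE 0.24, edgeR adjusted p 3.16e-03). Zfp455 (67194506 to 67209298) had 28.2, 25.0, 11.9 and 13.6 CPM and fell by 1.06 (SE 0.24, edgeR adjusted p 1.48e-03). At all 3 genes the higher D2 library was far below the lower B6 library.

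Then came genes with small or no differences. Zfp458 (67254918 to 67278466) has 2 start-site anchors and had 53.3, 57.8, 36.1 and 43.1 CPM, a log2 value of -0.48 that just passed (edgeR adjusted p 0.0475) and held in 6 of 11 alternatives. Zfp457 (67288138 to 67306485) had 28.2, 23.2, 25.3 and 24.1 CPM. Its D2 libraries lay between the B6 libraries, with the smallest difference of the window's genes (log2 -0.06, SE 0.21, edgeR adjusted p 0.896). Zfp595 (67312998 to 67332570) had 25.8, 26.1, 20.6 and 21.4 CPM (log2 -0.30, edgeR adjusted p 0.380). Zfp953 (67339306 to 67360605) and Gm28044 (67317942 to 67360536) share an anchor and had 78.1, 67.1, 58.5 and 48.2 CPM, a log2 value of -0.45 that just passed (edgeR adjusted p 0.0479). This call held in 6 of 11 alternatives, and over the anchors tested the same counts did not pass (edgeR adjusted p 0.0509). Zfp456 (67362113 to 67375810) and Gm28041 (67345246 to 67375733) also share an anchor and had 98.3, 89.97, 58.2 and 65.6 CPM and fell (log2 -0.61, edgeR adjusted p 3.31e-03).

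Zfp457 differed within itself. The anchor over its start sites (67304600 to 67308372, 99.2% unique words) is the one given above. A second anchor within the gene but over no start site (67295041 to 67300155, 89.5% unique words) had 30.3, 26.1, 12.3 and 10.9 CPM and fell by 1.29 on the log2 scale (edgeR adjusted p 9.05e-06). The difference between these 2 neighbours was not tested. Summed over anchors on any part of the gene, Zfp457 stood at log2 -0.56 (edgeR adjusted p 0.0211).

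The middle of the window holds its broadest anchor, 67397195 to 67439719, over the start sites of 3 genes. Zfp429 (67387905 to 67399819) and Zfp459 (67405709 to 67421418) lie on this anchor alone and had 297.8, 291.0, 149.9 and 154.9 CPM and fell (log2 -0.95, SE 0.13, edgeR adjusted p 7.20e-07). Zfp874a (67424549 to 67451624) also has the anchor 67448862 to 67454286 and had 332.8, 323.8, 163.7 and 167.4 CPM and fell (log2 -0.99, SE 0.13, edgeR adjusted p 3.21e-07). The replicates of each strain lay close together here and the strains were far apart. Zfp874b (67471513 to 67484258), its near copy, had 59.8, 65.3, 33.2 and 39.7 CPM and fell by 0.78 (edgeR adjusted p 1.01e-03).

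The next genes fell by less. Zfp58 (67490167 to 67500555) had 97.7, 79.6, 57.8 and 58.4 CPM and fell by 0.61 on the log2 scale. Zfp87 (67515781 to 67526177) and Gm26965 (67491152 to 67526151) share an anchor with 69.1, 61.4, 47.0 and 37.4 CPM and fell by 0.63. Zfp748 (67538641 to 67553830) had 57.8, 51.4, 36.9 and 38.4 CPM and fell by 0.54. In each case both D2 libraries lay below both B6 libraries, with edgeR adjusted p-values from 3.92e-03 to 0.0279.

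Zfp729b had the largest fall of any gene in the window. Its span is 67589439 to 67609707 and its start-site anchor had 70.1, 64.6, 13.7 and 17.3 CPM (log2 -2.11, SE 0.20, edgeR adjusted p 1.10e-10). With any 1 library removed, its value ranged from -2.29 to -1.96. Zfp729a (67612763 to 67637791), which carries a like name and lies next to it, shares an anchor with Gm49345 (67592159 to 67637769) and had 39.5, 43.6, 23.1 and 14.9 CPM. It fell (log2 -1.13, SE 0.21, edgeR adjusted p 1.40e-04), with 77.2% unique words in its anchor against 94.1% in that of Zfp729b. Zfp738 (67658685 to 67687071) had 42.3, 48.9, 24.2 and 24.1 CPM and fell (log2 -0.92, SE 0.19, edgeR adjusted p 6.40e-04), over an anchor with 82.9% unique words.

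Towards the right edge, moderate falls gave way to large ones. Zfp65 (67705309 to 67729173) had 127.2, 117.1, 80.9 and 92.0 CPM and fell (log2 -0.50, edgeR adjusted p 0.0111). Zfp85 (67747800 to 67755228) had 136.8, 144.2, 84.2 and 91.4 CPM and fell (log2 -0.68, edgeR adjusted p 3.78e-04). Neither gene's strains overlapped. Zfp493 (67779693 to 67792512) had 322.9, 320.3, 143.1 and 136.2 CPM over 2 anchors and fell (log2 -1.20, SE 0.13, edgeR adjusted p 6.78e-09). Zfp273 (67813740 to 67827002) had 256.2, 270.3, 113.4 and 105.3 CPM and fell (log2 -1.27, SE 0.13, edgeR adjusted p 2.17e-09), and its anchor is part of the Zfp493 sum. The last genes are not named as zinc fingers. Gm10037 (67831106 to 67844035) had 76.3, 76.4, 30.7 and 25.8 CPM and fell (log2 -1.44, SE 0.17, edgeR adjusted p 3.09e-08), and BC048507 (67863326 to 67863925) had 37.1, 44.6, 23.1 and 24.1 CPM and fell (log2 -0.79, edgeR adjusted p 4.40e-03).

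Genes of other types numbered 25, and 9 had a start-site anchor. The 8 that fell were the antisense genes Gm17039, 9430065F17Rik and 4930525G20Rik, the lincRNA F630042J09Rik, the transcript Zfp85os, the pseudogenes Gm48894 and Gm9625, and Gm38307. Apart from Zfp85os, F630042J09Rik and Gm38307, each rests on exactly the anchors of a protein-coding gene, so their counts add nothing of their own. Gm38307, over the Zfp874a anchor from 67448862 to 67454286, had the largest fall among them, with 53.6, 51.1, 19.1 and 18.7 CPM (log2 -1.47). Zfp85os, whose start sites lie on the Zfp65 and Zfp85 anchors, had 243.1 CPM in each B6 library and 147.8 and 161.7 CPM in the D2 libraries (log2 -0.65). F630042J09Rik, on an anchor also used by Zfp458, had 29.2, 32.5, 19.5 and 21.1 CPM (log2 -0.60, edgeR adjusted p 0.0489). Gm46440, on the Zfp712 anchor, did not pass.

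Counts at the genes of the alike promoters printed above were set against each other. The count of Zfp759 over that of Zfp457 had a log2 ratio of -0.02 in both B6 libraries, and of -1.67 and -1.20 in D2 replicates 1 and 2. Between Zfp273 and Zfp708 the log2 ratio was 2.19 and 2.59 in B6 and 1.21 and 1.52 in D2. The Zfp273 anchor is 34949 bp wide and also covers start sites of Zfp493 and Gm9625, while the Zfp708 anchor is 5507 bp wide. That ratio therefore does not compare the printed promoters alone. Over the anchors that hold the printed promoters, the log2 ratio of Zfp874a to Zfp874b was -0.16 and -0.36 for B6 and -0.80 and -1.09 for D2, a comparison by promoter anchor that was added after the data had been seen. With the whole count of Zfp874a, which includes the broad anchor shared with Zfp459, it was 2.48 and 2.31 for B6 and 2.30 and 2.08 for D2. In these 3 pairs the strains did not overlap and the ratio was lower in D2. Between Zfp729a and Zfp738 it was -0.10 and -0.17 in B6 and -0.07 and -0.69 in D2, where the strains overlapped. The two-sided exact permutation p was 0.33 for the first 3 gene pairs under either count, the smallest that 4 libraries allow, and 1.0 for the last, so none of these differences could pass a threshold of 0.05. Ratios were not taken for the alike pairs that are not printed. Among their genes the log2 fold change was -0.98 at Rsl1, -0.95 at Zfp429, -0.61 at Zfp456, -0.68 at Zfp85 and -1.27 at Zfp273.

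Counted by anchor, 36 of the 47 anchors fell in D2 and 0 rose at an edgeR adjusted p under 0.05, where 8.24% of all anchors tested fell and 2.93% rose. In 45 of the 47, both D2 libraries lay below both B6 libraries, which was so for 28% of all anchors tested. With all 4 libraries the log2 fold change was below 0 in all 47 anchors, from -2.11 to -0.06 with a median of -0.84, against -0.03 over all anchors tested. The count of fallen anchors was 23 without B6 replicate 1, 23 without B6 replicate 2 and 17 by the DESeq2 Wald test. Anchors over a start site (30) had a median of -0.73 and 24 fell. Anchors over no start site (17), of which 11 overlap no gene, had a median of -0.96 and 12 fell. Each pair's count enters the sums of both of its anchors, so anchors joined by a pair share its counts. Lower sums were thus found at anchors over start sites and at anchors between genes, but not as separate measurements.

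**Figure D2:**
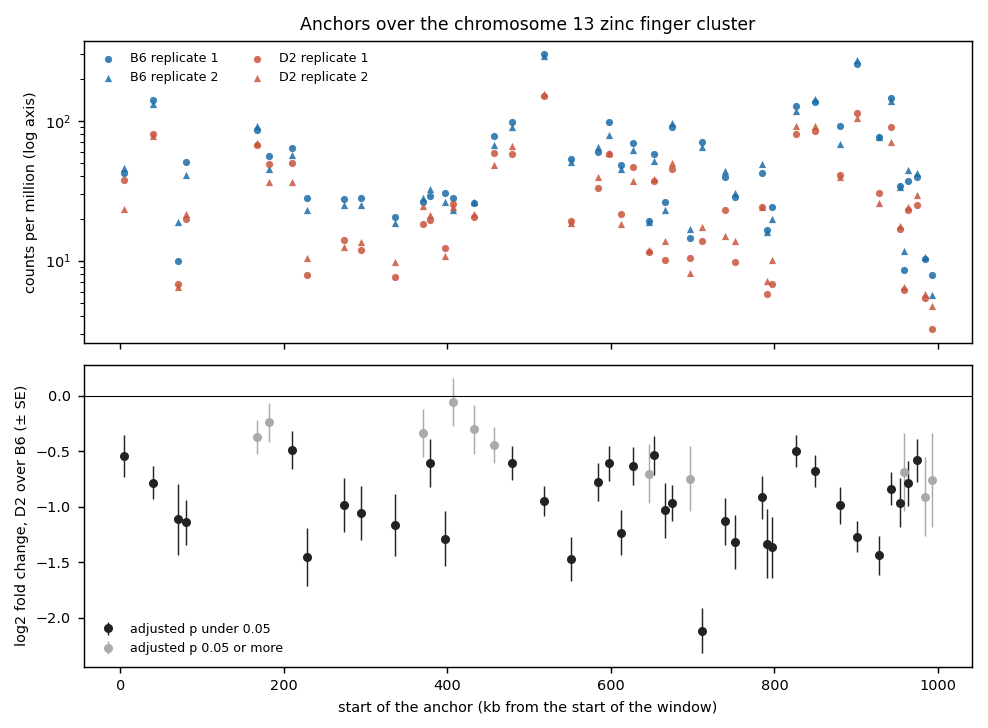
The 47 anchors of the window by distance from its start in kb: above, CPM in each library (log axis; blue B6, red D2, symbols for replicates); below, the log2 fold change of D2 over B6 with its SE, in black where the edgeR adjusted p is under 0.05. All 47 points of the lower panel lie below 0, and the grey points near 0 gather between about Zfp712 and Zfp953.

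The 5 anchors of smallest adjusted p were spread over the right part of the window. The Zfp729b anchor (67607545 to 67616457) had 204, 181, 38 and 51 counts (log2 -2.11, SE 0.20, edgeR adjusted p 1.03e-22). The Zfp493 and Zfp273 anchor (67783321 to 67818269) had 745, 757, 314 and 310 counts (log2 -1.27, SE 0.14, edgeR adjusted p 1.11e-16). The anchor over Gm10037 (67822922 to 67832873) had 222, 214, 85 and 76 counts (log2 -1.44, SE 0.18, edgeR adjusted p 1.91e-13). In all of them the higher D2 count was under the lower B6 count by a wide margin. The second Zfp874a anchor (67448862 to 67454286) had 156, 143, 53 and 55 counts (log2 -1.47, SE 0.20, edgeR adjusted p 5.85e-11). The broad anchor over Zfp429, Zfp459 and Zfp874a (67397195 to 67439719) had 866, 815, 415 and 456 counts (log2 -0.95, SE 0.14, edgeR adjusted p 6.20e-10). Unique words made up 93.1% to 98.5% of these anchors, except 85.5% at Gm10037.

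Sequence properties went only weakly with the size of the difference. Anchors with at least 90% unique words (34) had a median log2 fold change of -0.79 and 25 fell, and the 13 below that share had a median of -0.92 and 11 fell. Over the 47 anchors, which share libraries and pairs, Spearman's rho of the log2 fold change was 0.21 with the share of unique words, 0.20 with GC content and 0.10 with width. The anchors were 1436 to 42525 bp wide with a median of 5507 bp. Per kb of anchor, the B6 level ran from 2.26 CPM at an anchor over no gene (67232058 to 67240743) to 15.4 CPM at the first Zfp493 anchor (67777199 to 67782386).

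Among single pairs, 20 fell in D2 and 0 rose, of the 150 with at least 20 counts, where 0.797% of all pairs tested fell and 1.43% passed in either direction. All 20 had both D2 libraries below both B6 libraries, as did 95 of the 150 tested pairs, against 17.9% of all pairs tested. The other 1922 pairs were too sparse to test one by one and summed to 780.8 ± 5.97 CPM for B6 and to 406.8 ± 26.1 CPM for D2, with SD over 2 libraries and a log2 ratio of -0.94. Removing any 1 library leaves its strain a single library, so a drop in calls then shows no reliance on a particular library. Fewer single pairs were called in each such fit. Their number was 6 without B6 replicate 1, 6 without B6 replicate 2, 12 without D2 replicate 1 and 9 without D2 replicate 2. DESeq2 gave an adjusted p to 16 of the 150 pairs and called 2.

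The 20 pairs gathered on a few anchors. The Zfp493 and Zfp273 anchor was in 8 of them, of 26 tested pairs that use it, and the Zfp429, Zfp459 and Zfp874a anchor was in 7 of 35. At least 1 of these anchors was in 14 of the 20 pairs. The Gm10037 anchor was in 4 of 6 tested pairs, and the Zfp729b anchor in 3 of 7. Of the 20 pairs, 17 lay inside the window, and each of these joined 2 anchors that had themselves fallen. That outcome was favoured beforehand, since a pair's counts are part of both anchor sums and 36 of the 47 anchors fell. How many of the other tested pairs join fallen anchors was not counted. In 14 of the 17 the fall of the pair was larger than that of either anchor, which the choice of fallen pairs favours. The remaining 3 joined the Mterf3 and Ptdss1 anchor to partners upstream of the window.

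The widest of the named pairs linked both broad anchors of the cluster. It joined 67397195 to 67439719 (Zfp429, Zfp459, Zfp874a) with 67783321 to 67818269 (Zfp493, Zfp273), 382 kb away, and had 62 and 66 counts for B6 and 13 and 30 for D2 (log2 -1.58, SE 0.29, edgeR adjusted p 6.76e-05). D2 replicate 2 had over 2 times the count of D2 replicate 1, yet both were far below B6. A second pair joined the Mterf3 and Ptdss1 anchor with 66785784 to 66810717, 142 kb upstream, with 21 counts in each B6 library and 2 and 3 for D2 (log2 -3.07, SE 0.57, edgeR adjusted p 6.87e-05). That partner had 53.3% unique words. Another pair joined the Zfp729b anchor with 67570347 to 67580150, over no gene and 36.8 kb away, with 11 and 15 counts for B6 and 2 and 1 for D2 (log2 -3.12, SE 0.73, edgeR adjusted p 4.40e-03). The last joined the Gm10037 anchor with its neighbour from 67834609 to 67850822, 14.8 kb away, which overlaps the gene's later part and runs past its end, with 26 and 29 counts for B6 and 10 and 9 for D2 (log2 -1.53, SE 0.39, edgeR adjusted p 0.0145).

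**Figure D3:**
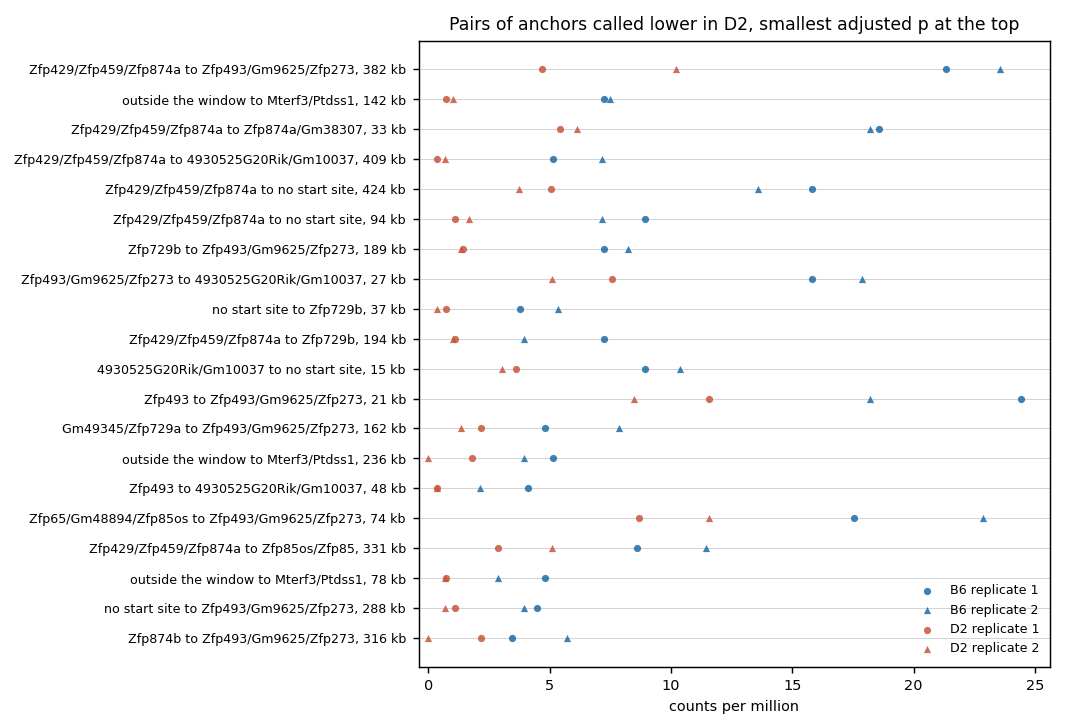
CPM in each library (blue B6, red D2, symbols for replicates) of the 20 pairs that fell in D2, ordered by adjusted p, with the start-site genes of both anchors and the distance in kb between them. In all 20 pairs both D2 points lie left of both B6 points.

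Some pairs had a log2 fold change above 0, and whether they differed from the rest of the window was not tested. The median over the window's tested pairs was -0.86, against 0.08 over all pairs tested. Of the 150 tested pairs, 132 had a log2 fold change below 0, and none of those above 0 had an unadjusted p under 0.05. The pair of the Gm28557 anchor with the Zfp429, Zfp459 and Zfp874a anchor had 19 and 10 counts for B6 and 27 and 14 for D2 (log2 0.50, edgeR adjusted p 0.661). The pair of the Zfp457 start-site anchor with the same broad anchor had 11 counts in each B6 library and 12 and 16 in D2 (log2 0.35, edgeR adjusted p 0.826). The pair of the Zfp712 and Zfp708 anchors had 29 and 34 counts for B6 and 42 and 29 for D2 (log2 0.17, edgeR adjusted p 0.878). These examples were chosen after their values were seen, and the broad anchor in the first and second of them fell as a whole (log2 -0.95).

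The authors' own values per library also marked fewer of the cluster's pairs in D2. A second column of the deposited files, taken as a q-value, was under 0.01 for 324 and 313 of the cluster's pairs in B6 and for 178 and 183 in D2. Pairs with any count numbered 1320 and 1256 in B6 and 818 and 894 in D2, so the share under 0.01 was 24.5% and 24.9% in B6 and 21.8% and 20.5% in D2. Over all pairs with a count in the table, the share was 20.2% and 19.6% in B6 and 20.99% and 20.2% in D2, so the cluster's D2 shares were near that of the whole table. Under 0.01 in both B6 libraries and neither D2 library were 60 pairs, and 15 were so in both D2 libraries and neither B6 library. All 4 libraries shared 64 pairs. These sets were not counted over the whole table, so 60 against 15 has no share of all pairs beside it. The cluster also had fewer pairs with any count in D2.

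The lower level continued past the right edge of the window but not, without the shared pairs, in the 1 Mb to its left. The window directly upstream stood at log2 -0.34 (edgeR adjusted p 2.80e-04), but 1773 of its counts belonged to pairs that also touch the cluster. Without these, it had 435.6 and 415.6 CPM in B6 and 420.9 and 472.8 CPM in D2, and the strains overlapped (log2 ratio 0.07). The window directly downstream had few counts of its own and stood at log2 -0.54 (edgeR adjusted p 7.70e-03), or a ratio of -0.71 without shared pairs. The next 2 windows downstream had -0.76 (edgeR adjusted p 5.27e-07) and -1.44 (edgeR adjusted p 1.15e-12). At 3 Mb upstream the value was -0.78, so the cluster was not alone in its neighbourhood. On chromosome 13, 3 of the 117 windows had lower values than the cluster.

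**Figure D4:**
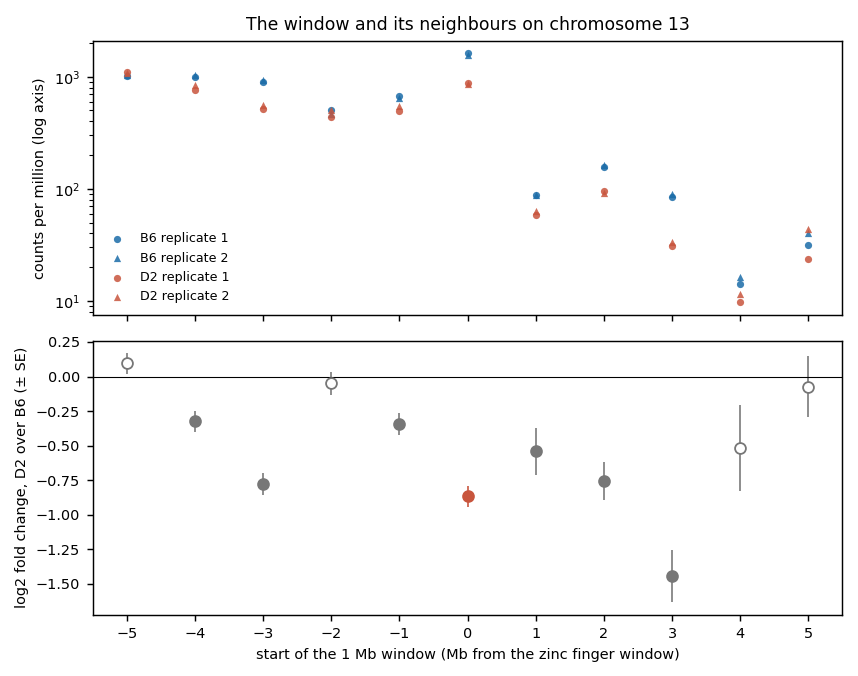
Windows of 1 Mb from 5 Mb before to 5 Mb after the zinc finger window (position 0): above, CPM in each library (log axis); below, the log2 fold change of D2 over B6 with its SE, filled where the edgeR adjusted p is under 0.05, with the zinc finger window in red. The zinc finger window has the highest CPM of the 11 in both B6 libraries and, at -0.87, is lower than all but the window 3 Mb downstream.

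Genes of the corepressor pathway, which lie elsewhere in the genome, were listed for comparison. Of 12 listed genes 7 were measured at their start sites (median log2 0.14), 0 fell and 1 rose, where 14.4% of all genes passed in either direction. Trim28, the corepressor that KRAB domains bind, had 437.0 and 434.2 CPM in B6 and 821.6 and 502.0 CPM in D2 (log2 0.60, edgeR adjusted p 5.36e-03), with D2 replicate 1 far above the other 3 libraries. Setdb1 had 62.9, 64.3, 63.9 and 69.3 CPM (log2 0.07, edgeR adjusted p 0.820). Of 10 embryonic stem cell markers, all measured (median log2 0.34), 3 rose and 0 fell, where 5.91% of all genes tested rose. Sox2 had 173.0, 212.8, 331.7 and 242.2 CPM, Nanog 496.2, 518.4, 980.5 and 588.3 CPM, and Tbx3 341.4, 427.0, 682.1 and 388.9 CPM, where D2 replicate 2 lay below B6 replicate 2. The log2 value was below 0 at Klf4 (-0.24), Pou5f1 (-0.17) and Prdm14 (-0.07) and above 0 at the other markers. At Klf4 both D2 libraries lay below both B6 libraries. The summed level of the 10 was 2400 and 2591 CPM in B6 and 3752 and 2489 CPM in D2. Of 6 fibroblast markers only Thy1 had a tested start-site anchor, with 3.61 to 7.56 CPM, and 4 of 6 endoderm and mesoderm markers summed to 56.4 to 62.9 CPM, with 0 called in either list. D2 replicate 1, the library with the mark 10cyc in its name where the others have 8cyc, was the highest at Trim28 and in the embryonic stem cell sum, while the D2 libraries of the cluster were 879.0 and 867.8 CPM. Without D2 replicate 1 the window stood at log2 -0.88, and without D2 replicate 2 at -0.86.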

How the data were processed

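The 4 H3K27ac HiChIP libraries, 2 per strain, came from mouse embryonic stem cells. The deposited series table holds raw counts of read pairs per pair of anchors, and the single-library files repeat these counts (4288 values of the cluster were equal, 0 differed) and add a value taken as the authors' q-value; the distance between anchor midpoints is another deposited column. The submitters' processing notes name HiC-Pro 2.11.4, DESeq2 and mm10, without their roles; alignment settings and the caller's filters are not given in the sources used here. All 170 anchors of the cluster's pairs start and end at GATC sites of GRCm38. Genes came from GENCODE M21 and promoter sequences from RefSeq.

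Counts were summed per anchor, per gene (anchors over any start site) and per 1 Mb window. Each level was fitted over the whole table with edgeR 4.0.16 (R 4.3.3; glmQLFit and glmQLFTest), library totals as the only scaling and strain as the only term, on features with at least 20 counts. Benjamini-Hochberg adjustment ran over all features of a level, and the threshold was 0.05. Log2 values are the fitted coefficients of D2 over B6. Each SE was derived from the test, as the size of the coefficient over the square root of its F statistic. The Zfp729b range with a library removed, and the medians over all genes, anchors and pairs, use edgeR's slightly shrunken log2 fold changes. CPM is the count per 1000000 of the library total. The share of 75-base words found once was computed over all assembled and unplaced mouse sequence. The code was tested on simulated counts with the spread of the B6 libraries. All simulated libraries were given that spread, so the rates do not cover a wider spread between the D2 libraries. At a 2-fold change the code recovered 5.8% of changed pairs, 66.5% of changed anchors and 88% of changed genes. At a 3-fold change it recovered 31.8% of changed pairs, so the test of single pairs misses most changes of these sizes.

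All protein-coding genes are named; pairs and anchors are the 5 of smallest adjusted p without overlap of the strains, pairs sharing an anchor skipped, which left 4 pairs. The members and lists were chosen with earlier results of these data known. Zinc finger genes were taken by symbol (Zfp, Rsl), since no protein table was used here. Replicate numbers did not pair the samples: over 51820 anchors the deviations of replicates correlated at 0.0045 between strains. Alternatives were TMM factors, totals of chromosome 13, a replicate block, each library left out, DESeq2 1.42.0, other count minimums, unique anchors and whole-gene anchors. DESeq2 ran with its own scaling in place of library totals and with its default filtering.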

Additional observations from a re-analysis of the deposited data

How the results depend on the processing

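The window's log2 fold change stayed between -0.89 and -0.75 and passed the test in every alternative run, and 0 pairs, anchors or genes were called higher in any. The 20 fallen pairs became 6 to 12 with 1 library left out, 2 with the DESeq2 Wald test, 9 with no count minimum, 11 with at least 50 counts (of 41 tested) and 11 with anchors of unique sequence (of 92 tested). The 36 fallen anchors became 23 to 34 with a library left out, 17 with DESeq2 and 22 with unique sequence (of 34 tested). The 37 fallen genes became 21 to 37 with a library left out and 23 with DESeq2. Fewer libraries, fewer tested features or, for DESeq2, another scaling are part of these settings. The cause of the DESeq2 counts was not tested. The other settings kept each count within 1.5 times. Of the gene values, 38 lost and 14 gained the threshold, and 1 reversed, Zfp457, at 0.0895 without B6 replicate 1 (edgeR adjusted p 0.918) and -0.191 without B6 replicate 2; of those of the named pairs, 13 lost it. Samples shared only a replicate number: with the replicate block 17 pairs, 34 anchors and 39 genes fell, and the window stayed at -0.87. Over all pairs, 861 fell and 685 rose with library totals against 1033 and 510 with TMM factors, and over all genes 1841 and 1285 against 2240 and 781. Depth limits single pairs most: 1922 of 2072 had under 20 counts in all. Taken over the anchor of the printed promoter alone, an alternative added after seeing the data, the strain difference of the Zfp874a to Zfp874b ratio was -0.69 in place of -0.21.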
